A study of Chlorocebus aethiops with 36 samples.

Results

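The glycoprotein gp130, encoded by IL6ST, is the receptor chain shared by the interleukin-6 family of cytokines. Each cytokine of the family also needs a partner chain: IL6R binds interleukin-6, LIFR binds leukaemia inhibitory factor, and OSMR binds oncostatin M. The kinases JAK1 and JAK2 sit on these receptors and phosphorylate the transcription factor STAT3, which in hepatocytes drives acute-phase genes. SOCS3 is a target of STAT3 that binds gp130 and shuts the signal down, and SOCS2 is a related inhibitor best known as a target of growth hormone.

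The genes described here are these 9 (IL6ST, IL6R, LIFR, OSMR, JAK1, JAK2, STAT3, SOCS2 and SOCS3), read on every probe set, that is every group of probes for a transcript, whose platform annotation names that symbol and no other. The rule gave 37 probe sets out of 54675 on the array, and 9 genes out of 19775: 7 probe sets for IL6ST, 5 each for LIFR and JAK1, 4 each for STAT3 and SOCS3, and 3 each for IL6R, OSMR, JAK2 and SOCS2. Of the 37, 20 had a mean over all arrays at or above the median of all probe sets. The genes were chosen from the values of these same arrays, on the level of IL6ST at week 4 and week 12, so their changes over time are given as a description with no test, while differences between treatment arms were tested.

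The samples were liver biopsies of 12 male African green monkeys, hybridised to a human expression array (HG-U133 Plus 2.0). A microRNA can be blocked with a complementary oligonucleotide, an anti-miR: 6 animals received anti-miR-33 and 6 a control anti-miR, both at 5 mg/kg under the skin, on 2 days a week at first and weekly later. Every animal was biopsied at week -5 (baseline, untreated, on chow), at week 4 (treated, on chow) and at week 12 (treated, after 8 weeks on a diet high in carbohydrate and moderate in cholesterol). This makes 36 arrays in 6 groups of 6. The arm of a baseline array follows from the animal's later arrays, and animals are numbered within their arm. The values are log2 signals. Because human probes can mismatch monkey transcripts, a level was compared between groups for 1 probe set and never between probe sets.

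Some properties of the arrays moved with time. In the labels the arrays of baseline and week 12 share 1 unbroken series of numbers, while the 12 arrays of week 4 have a series of their own, so a departure at week 4 alone and that series cannot be told apart. Control probe sets read GAPDH and ACTB near the 3′ end and near the 5′ end, and the gap between them (the 3′ minus 5′ difference, larger in degraded RNA) averaged 2.57 ± 0.43 before treatment, against 1.94 ± 0.41 in week 4 and 1.83 ± 0.16 in week 12 (SD, n = 12). Of 14 hepatocyte markers, 0 were called lower or higher from baseline to week 4, where limma called 12.2% of all genes higher and 15.7% lower (1 marker had an unadjusted p under 0.05). Of 13 markers of sinusoidal endothelium, 9 fell over that interval and 1 rose, and their mean level ranged from 6.55 to 7.12, then from 6.08 to 6.74, and at week 12 from 6.04 to 6.48. Of 11 macrophage markers and 11 stellate and fibroblast markers, 5 each fell to week 4. At week 12 the mean of the hepatocyte markers was 12.11 in control animal 5, against 12.60 to 12.79 in the others. The label of 1 array at week 4 (control animal 1) names the diet of week 12, while the rest of its group is labelled as on chow. Fewer cells of a type and less RNA per cell cannot be told apart in such biopsies.

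IL6ST was the member with the largest departure at week 4, and the departure was carried by 2 of its 7 probe sets. On 204863_s_at the level ranged from 7.92 to 9.10 at baseline (median 8.55), from 6.17 to 7.58 at week 4 (median 6.96), and from 7.25 to 8.53 at week 12 (median 7.89). The baseline and week 4 ranges did not overlap, and week 12 overlapped both. Within animals the level at week 4 was lower than at baseline by a mean of 3.08-fold (change -1.62 ± 0.55, SD, n = 12), in 12 of 12 animals, with single changes between -2.25 and -0.39. From week 4 to week 12 it was higher in 12 of 12 animals, by 0.99 ± 0.50. The return was partial: at week 12 the level stood 0.64 below baseline on average (change -0.64 ± 0.54), lower in 9 animals, higher in 2 and equal in 1.

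The second probe set, 211000_s_at, followed the same course at a smaller size. Its level ranged from 6.67 to 7.67 at baseline (median 7.23), from 5.28 to 6.74 at week 4 (median 6.16) and from 6.21 to 7.57 at week 12 (median 6.88). The change was -1.12 ± 0.50 to week 4, lower in 12 of 12 animals, and then 0.86 ± 0.57 to week 12, higher in 12 of 12. At week 12 it was 0.26 below baseline (change -0.26 ± 0.39), with 9 animals lower and 3 higher. Across the 36 arrays (not independent, since each animal gave 3) the levels of both probe sets had a Pearson r of 0.900 and a Spearman rho of 0.910 (r = 0.875 without the 2 arrays farthest from the median), and r was 0.737 after the mean of each time was subtracted.

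The other 5 IL6ST probe sets did not share this course. On 212196_at the baseline level of 5.95 ± 0.12 was followed by 6.11 ± 0.27 and then 6.42 ± 0.17. From baseline to week 4 it was higher in 6 animals, lower in 5 and equal in 1, and from baseline to week 12 it was higher in 12 of 12 animals, by 0.48 ± 0.25. The remaining probe sets, 204864_s_at, 212195_at, 234967_at and 234474_x_at, had means below the median of all probe sets, and their mean changes lay between -0.07 and 0.17 over all intervals. The level on 204863_s_at had an r of -0.07 with that on 212196_at over the 36 arrays (rho = -0.11).

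**Figure D1:**
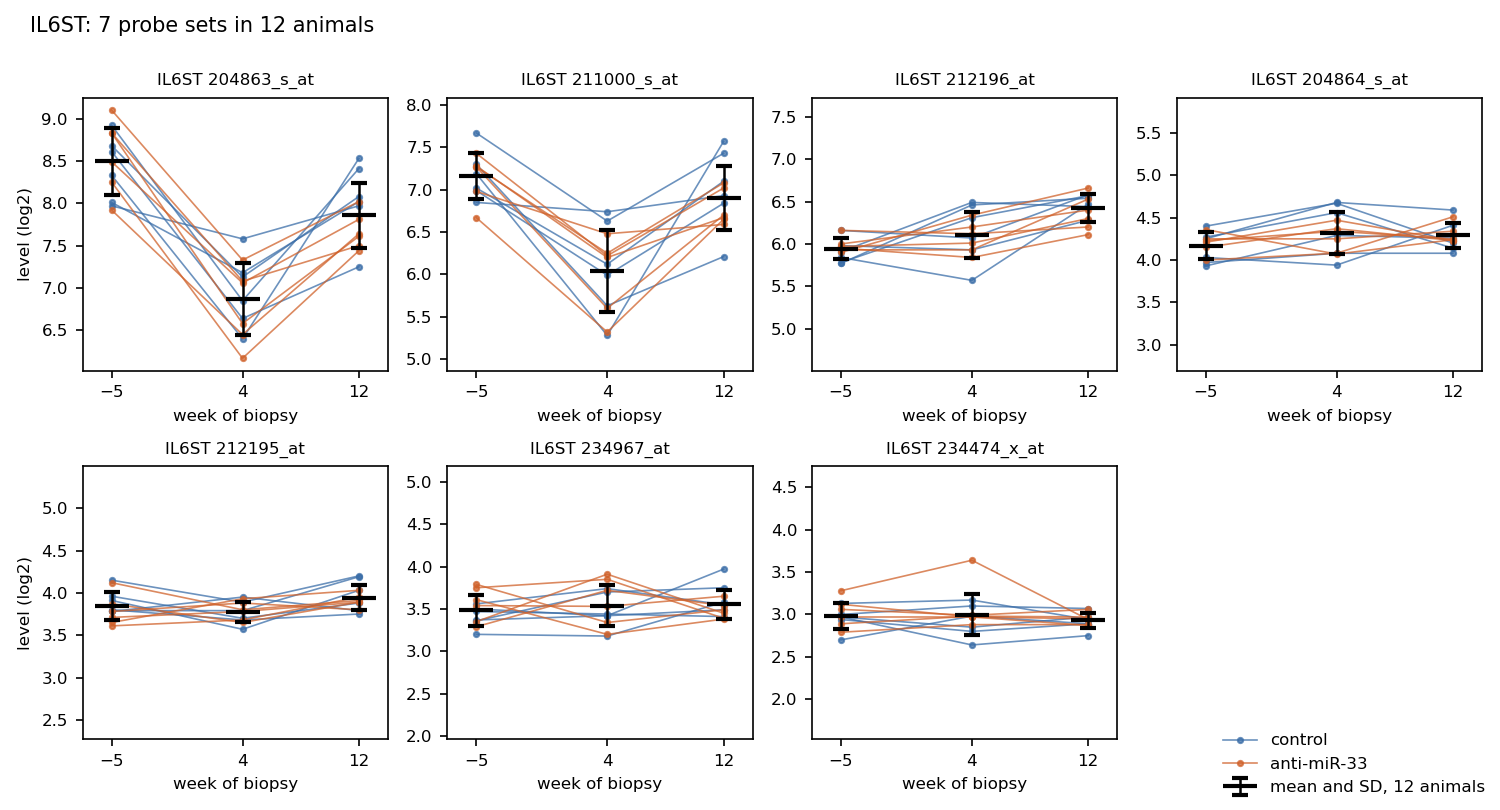
Level of IL6ST (log2) on each of its 7 probe sets against the week of biopsy; thin lines join the 3 biopsies of an animal, blue for control and orange for anti-miR-33, and black bars give the mean and SD of 12 animals. All panels span the same log2 range: 204863_s_at and 211000_s_at dip at week 4 in 12 of 12 animals, and 212196_at is higher at week 12 than at baseline in 12 of 12.

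The dip in IL6ST was present in both arms. On 204863_s_at the change to week 4 was -1.46 ± 0.69 in control animals and -1.79 ± 0.32 in anti-miR-33 animals (SD, n = 6), and the change from week 4 to week 12 was 1.08 ± 0.65 and 0.89 ± 0.33. From baseline to week 12 it was -0.38 ± 0.58 in control animals, lower in 3 of 6, and -0.90 ± 0.39 in anti-miR-33 animals, lower in 6 of 6. The difference between arms in that last change was -0.52 ± 0.28 (SE; limma adjusted p = 0.999), which did not pass the test.

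Several cell markers and the RNA measure were on average lower at week 4 than at baseline, as both IL6ST probe sets were. The 3′ minus 5′ difference did not return, with a mean of 1.94 at week 4 and 1.83 at week 12. The level on 204863_s_at had an r of 0.623 (rho = 0.525) with the 3′ minus 5′ difference over the 36 arrays and 0.631 (rho = 0.634) with the mean of the endothelial markers, while on 211000_s_at these were 0.309 (rho = 0.277) and 0.498 (rho = 0.552). After the mean of each time was subtracted, r was 0.558 and 0.394 on 204863_s_at, and -0.004 and 0.335 on 211000_s_at. With macrophage markers the values were 0.527 (rho = 0.549) and 0.472 (rho = 0.519), and with lymphocyte markers 0.572 (rho = 0.581) and 0.354 (rho = 0.385), in the same order of probe sets. With the 3′ minus 5′ difference as a covariate, the change on 204863_s_at was -1.21 to week 4 and 1.06 from week 4 to week 12, but -0.15 from baseline to week 12 in place of -0.64. On 211000_s_at it was -1.10, 0.86 and -0.24. Of 13 endothelial markers, 0 rose and 3 fell from week 4 to week 12, beside 9.58% and 9.82% of all genes. Their mean level averaged 6.31 on the week 4 arrays, against 6.23 on those of week 12. Over the same interval 3 of 14 hepatocyte markers rose and 0 fell, and of 4 erythroid markers measured 0 rose and 3 fell. Of 11 macrophage markers 1 rose and 0 fell. Of 10 lymphocyte markers 2 rose and 3 fell to week 4, beside 12.2% and 15.7% of all genes. The part of these cell types in the level of IL6ST was not tested.

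Among all 37 probe sets, 3 were lower at week 4 than at baseline in all 12 animals (both IL6ST probe sets and JAK1 1552611_a_at) and 0 were higher in all 12, where 2.47% of all 54613 probe sets that are no controls were lower and 1.75% higher in all 12. From week 4 to week 12, 2 were higher in all 12 (the IL6ST pair) and 0 were lower, against 1.29% and 1.49% of all. From baseline to week 12, 1 was lower (JAK1 1552611_a_at) and 2 were higher (IL6ST 212196_at and JAK2 205842_s_at), against 2.1% and 0.941%. These intervals are those on which the genes were chosen, so nothing is read from the counts. The median change over the 37 was -0.065, 0.13 and 0.057 in the order of these intervals, beside 0.007, -0.007 and -0.002 over all probe sets.

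**Figure D2:**
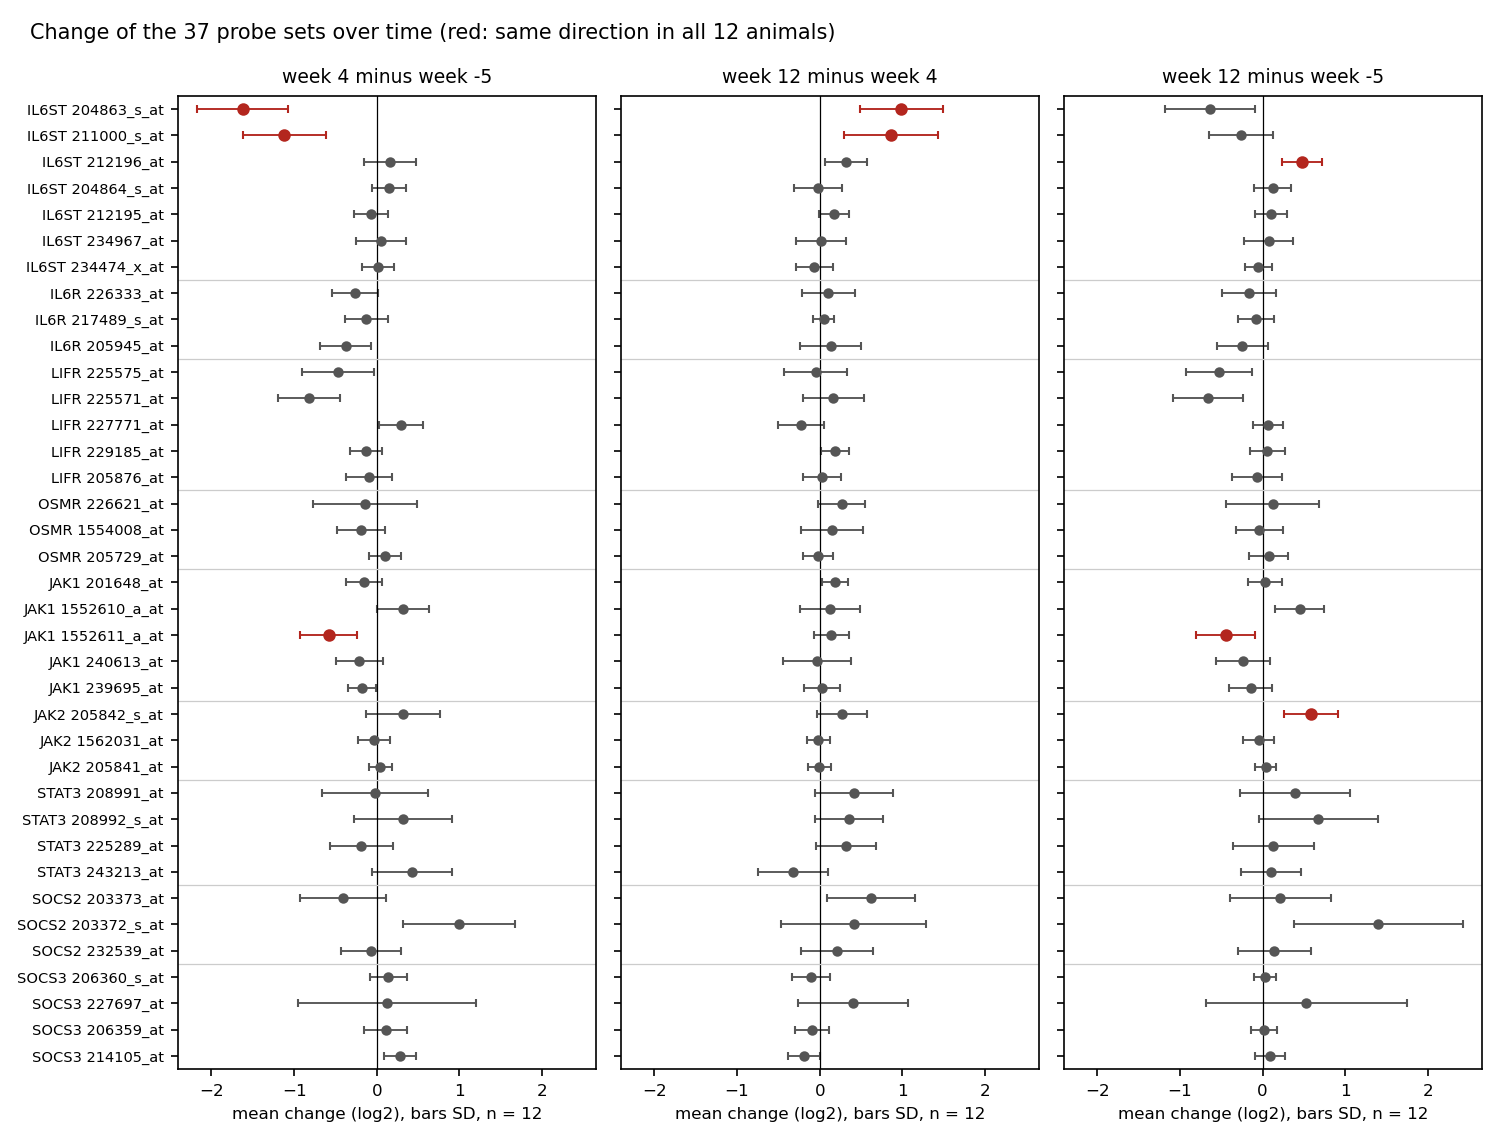
Mean change within animals (log2, points; bars are SD, n = 12) of the 37 probe sets in the 3 intervals between biopsies. Red points moved the same way in all 12 animals; the 2 IL6ST probe sets at the top lie at -1.62 and -1.12 to week 4 and at 0.99 and 0.86 from week 4 to week 12.

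Of the partner chains, LIFR was lower at week 4 and stayed near that level at week 12. On 225571_at the level ranged from 8.19 to 9.90 at baseline (median 8.81), from 7.43 to 8.63 at week 4 (median 8.02) and from 7.77 to 8.46 at week 12 (median 8.22), so the ranges overlapped. The change was -0.82 ± 0.38 to week 4, lower in 11 animals and equal in 1, then 0.16 ± 0.37, and -0.66 ± 0.42 from baseline to week 12, lower in 11 of 12. On 225575_at it was -0.47 ± 0.43, -0.05 ± 0.38 and -0.52 ± 0.40, the last lower in 11 of 12; with the 3′ minus 5′ covariate these were -0.70, -0.09 and -0.80. The level on 225571_at had an r of 0.724 (rho = 0.715) with the mean of the endothelial markers over the 36 arrays, and 0.385 after the mean of each time was subtracted. On 225575_at these were 0.552 (rho = 0.547) and 0.08, and the part of endothelial cells was not tested. The other 3 LIFR probe sets had means below the median of all, and their mean changes lay between -0.23 and 0.29.

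LIFR also held the largest differences between arms at baseline, before any treatment. On 225571_at the control animals ranged from 8.25 to 9.90 (median 9.07) and the anti-miR-33 animals from 8.19 to 8.85 (median 8.57); on 225575_at they ranged from 9.74 to 11.15 (median 10.32) and from 9.49 to 10.37 (median 9.91). The arms overlapped on both. The differences, anti-miR-33 minus control, were -0.52 ± 0.17 and -0.45 ± 0.16 (SE; limma adjusted p = 0.999 for both) and did not pass the test. By week 4 they were -0.04 ± 0.17 and 0.16 ± 0.16. The change from baseline to week 4 on 225575_at was accordingly -0.78 ± 0.35 in control animals, lower in 6 of 6, and -0.17 ± 0.28 in anti-miR-33 animals (SD, n = 6), lower in 4 of 6, and the difference between those changes, 0.60 ± 0.21 (SE; adjusted p = 0.998), did not pass either.

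IL6R, the interleukin-6 binding chain, moved little. On 226333_at a baseline level of 8.77 ± 0.16 was followed by 8.50 ± 0.19 and 8.60 ± 0.30, lower than baseline in 10 of 12 animals at both later times. Its change to week 4 was -0.27 ± 0.28. On 217489_s_at and 205945_at the same change was -0.13 ± 0.26 and -0.38 ± 0.31, the latter from a mean level below the median of all probe sets. OSMR, the oncostatin M chain, had no shared course on 226621_at: the change was -0.15 ± 0.63 to week 4 and 0.27 ± 0.28 from there to week 12, higher in 9 of 12. The spread of OSMR to week 4 came mainly from 1 animal, anti-miR-33 animal 4, whose level went from 6.67 at baseline to 8.26 and 8.28, while the other 11 animals lay between 5.83 and 7.29 at weeks 4 and 12. Without that animal the change to week 4 was -0.31. The 2 further OSMR probe sets had means below the median of all.

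**Figure D3:**
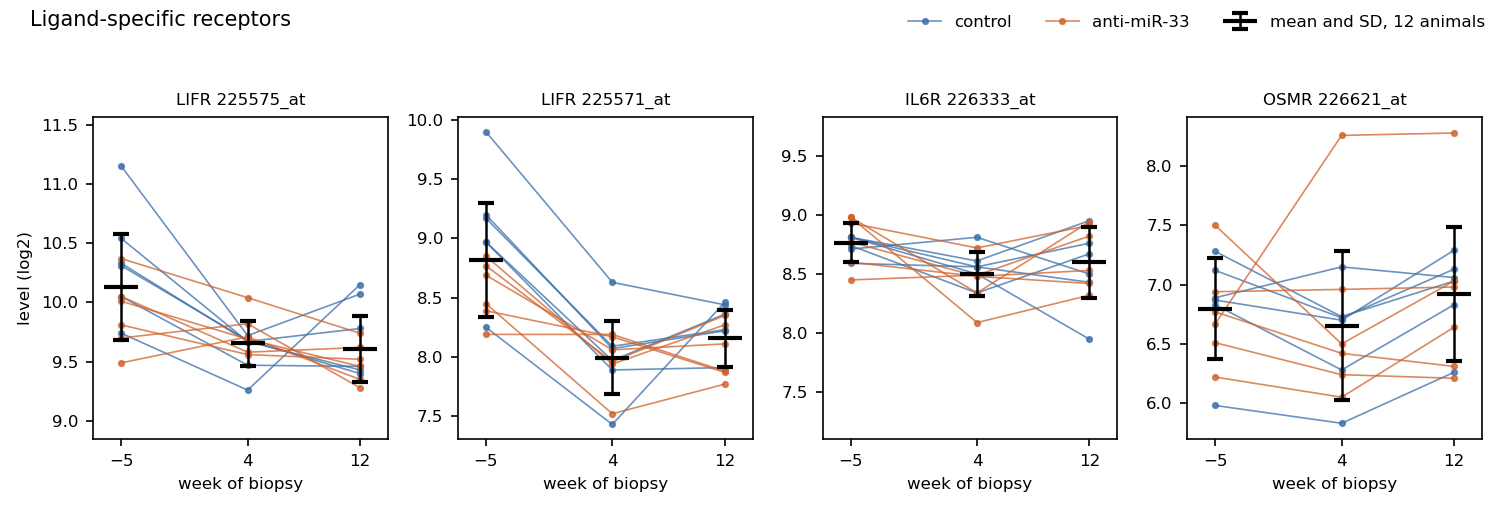
Level (log2) of the partner chains against the week of biopsy, on the 2 LIFR probe sets above the median level and on 226333_at (IL6R) and 226621_at (OSMR), drawn as for IL6ST over a common log2 range. LIFR stays low at week 12, IL6R moves little, and 1 anti-miR-33 animal lies above 8 on OSMR at weeks 4 and 12.

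The kinase JAK1 gave different answers on its probe sets. On 1552611_a_at its level averaged 6.78 ± 0.21 at first, then 6.20 ± 0.22 and 6.33 ± 0.31, lower than baseline in 12 of 12 animals at both later times (changes -0.58 ± 0.34 and -0.44 ± 0.36). On 1552610_a_at it was instead higher than baseline, by 0.32 ± 0.32 at week 4 and 0.45 ± 0.29 at week 12, in 11 of 12 animals each time. That probe set followed the 3′ minus 5′ difference closely (r = -0.843 and rho = -0.828 over the 36 arrays), and with this difference as a covariate its changes were -0.11 and -0.06, so the direction turned. On 201648_at, the JAK1 probe set with the highest mean, the changes were -0.15 ± 0.21 and 0.03 ± 0.21, and with that covariate -0.29 and -0.13, so the second turned direction. On 240613_at they were -0.21 ± 0.28 and -0.24 ± 0.33, and -0.13 and -0.14 with the covariate.

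The kinase JAK2, which also serves the growth hormone receptor, was higher at week 12 than at baseline in 12 of 12 animals on 205842_s_at, by 0.59 ± 0.33. Its level ranged from 4.21 to 5.19 at baseline (median 4.91), from 4.32 to 5.82 at week 4 (median 5.13) and from 5.17 to 5.85 at week 12 (median 5.35). The baseline and week 12 ranges overlapped only between 5.17 and 5.19. This probe set too had a strong r with the 3′ minus 5′ difference (-0.715, rho = -0.650), and with that covariate the change was 0.28. The other 2 JAK2 probe sets had means below the median of all and mean changes between -0.05 and 0.04.

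STAT3, the transcription factor of the pathway, had no shared course to week 4 over its probe sets, and on 3 of the 4 it was higher at week 12 than at week 4 in at least 10 animals. On 208991_at the level ranged from 9.97 to 11.68 at baseline (median 10.44), from 9.87 to 11.65 at week 4 (median 10.31) and from 10.41 to 12.00 at week 12 (median 10.74), with broad overlap. The change was -0.03 ± 0.64 to week 4, or -0.20 without anti-miR-33 animal 4, and 0.42 ± 0.47 from week 4 to week 12, higher in 11 of 12 animals. From baseline to week 12 it was 0.39 ± 0.67, higher in 10 of 12, and 0.23 without anti-miR-33 animal 4. On 208992_s_at the change was 0.32 ± 0.59 to week 4 (0.15 with the 3′ minus 5′ covariate), 0.35 ± 0.41 after it and 0.67 ± 0.72 over both. On 225289_at it was -0.19 ± 0.38, then 0.32 ± 0.36, and 0.13 ± 0.49 over both; the last ranged from 0.04 without anti-miR-33 animal 4 to 0.24 without anti-miR-33 animal 6, and was 0.27 with the covariate. On 243213_at it was 0.42 ± 0.48 to week 4 and -0.32 ± 0.42 after it, the only STAT3 probe set with a mean below 0 in that second interval.

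The feedback inhibitor SOCS3 was low in most biopsies and high in a few on 227697_at, whose mean of 4.42 lies just below the median of all probe sets. Control animals ranged from 3.95 to 4.28 at baseline, 3.50 to 4.85 at week 4 and 3.80 to 5.84 at week 12, the last being control animal 2. Anti-miR-33 animals ranged from 3.76 to 6.01 at baseline, 3.72 to 6.86 at week 4 and 4.11 to 7.32 at week 12. The 2 highest values, 6.86 and 7.32, were both from anti-miR-33 animal 4, whose baseline level was 3.94, and the 6.01 was from anti-miR-33 animal 6, which stood at 4.29 and 4.62 later. Over all animals the change was 0.13 ± 1.07 to week 4 and 0.40 ± 0.66 after it, and without animal 4 the first was -0.15, the opposite direction. The level had an r of 0.495 (rho = 0.348) with the mean of 8 neutrophil markers, which lay between 4.27 and 4.56 over all arrays. Of these 8 markers 3 rose and 1 fell to week 4, beside 12.2% and 15.7% of all genes. Their part in the level of SOCS3 was not tested. The other 3 SOCS3 probe sets moved by a mean of at most 0.28 in size, and 206360_s_at, the 1 with the highest mean, stood at 4.75 and 4.61 in animal 4 at weeks 4 and 12, within its group.

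SOCS3, STAT3 and OSMR were high in the same biopsies. In anti-miR-33 animal 4 STAT3 208991_at went from 9.97 at baseline, the lowest baseline level, to 11.65 and 12.00, the highest at each later time. In anti-miR-33 animal 6 all 3 genes were at their highest of the baseline biopsies, with 11.68 for STAT3, 6.01 for SOCS3 and 7.50 for OSMR. Over the 36 arrays the levels of STAT3 208991_at and SOCS3 227697_at had an r of 0.845 (rho = 0.773), 0.771 without the 2 arrays farthest from the median of STAT3, and 0.793 without the 3 arrays of animal 4. For OSMR with SOCS3 r was 0.807 (rho = 0.628) and 0.615 without the 2 farthest arrays, and for STAT3 with OSMR it was 0.756 (rho = 0.648) and 0.663. These are descriptions of arrays that share animals and times. With the mean of the STAT3 target genes described next, IL6ST had an r of 0.106 (rho = 0.07) on 204863_s_at, 0.276 on 211000_s_at and 0.451 on 212196_at, and of 0.302, 0.434 and 0.168 after the mean of each time was subtracted.

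**Figure D4:**
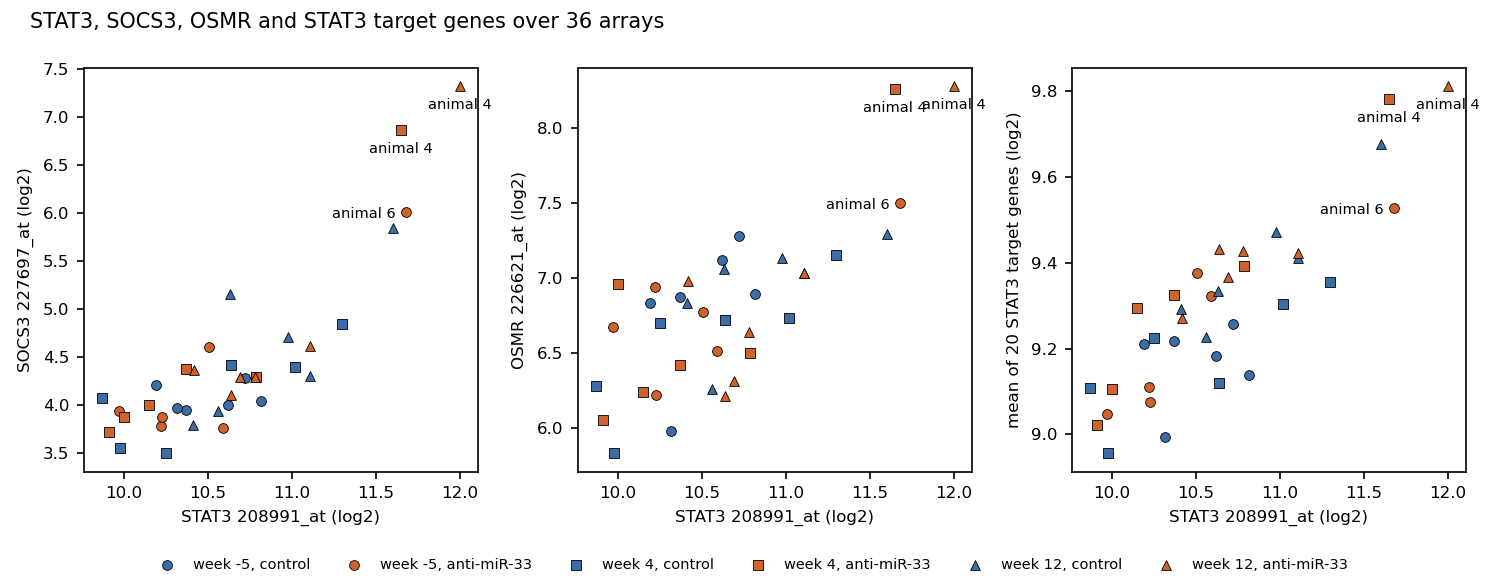
Level of SOCS3 227697_at (left), OSMR 226621_at (middle) and the mean of 20 STAT3 target genes (right) against STAT3 208991_at, all log2, with 1 point for each of 36 arrays; colour gives the arm and shape the week. The labelled points are anti-miR-33 animal 4 at weeks 4 and 12 and anti-miR-33 animal 6 at baseline, and r is 0.845, 0.756 and 0.864 from left to right.

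As a mean, genes that STAT3 is known to induce in liver followed its level across biopsies, though not every gene did. Of 25 listed hepatic STAT3 targets 20 were measured. Their mean level had an r of 0.864 with STAT3 208991_at over the 36 arrays (rho = 0.813, 0.826 without the 2 farthest arrays, 0.788 without animal 4), 0.840 with SOCS3 227697_at and 0.720 with OSMR 226621_at. Singly, 13 of the 20 had an r above 0.5 with STAT3 (median 0.526). Outside the list 279 of 19754 genes did (1.41%, median -0.02), taken at any level and not matched to the targets. Without anti-miR-33 animal 4 the count was 7 of 20 (median 0.403), beside 309 of 19754 (1.56%), and SERPINA3, a protease inhibitor, went from 0.530 to 0.219. The highest were MCL1, a survival factor (0.807), JUNB, a transcription factor (0.760), and HP, the acute-phase protein haptoglobin (0.758), named after their values were seen. The lowest were ICAM1 (-0.12), TIMP1 (0.07), HAMP (0.13), MYC (0.16), IRF1 (0.20) and A2M (0.24). CRP went from 0.474 to 0.170 without anti-miR-33 animal 4. The STAT3 level itself had an r of -0.174 with the 3′ minus 5′ difference, 0.334 with the neutrophil markers and 0.308 with the hepatocyte markers.

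The same target list shifted upward from baseline to week 12. The list was chosen with earlier results of these data known, so its counts are not an independent test. In limma 9 of 20 targets rose (45%) and 1 fell, where 6.59% of all genes rose and 10.2% fell. By smallest p the first were MCL1, by 0.61 ± 0.15 (SE; adjusted p = 0.00468), CRP, the acute-phase C-reactive protein, by 0.68 ± 0.18 (0.00875), the transcription factor IRF1 by 0.33 ± 0.09 (0.00897) and LBP, which binds lipopolysaccharide, by 0.77 ± 0.21 (0.0103). The adhesion molecule ICAM1 fell by 0.23 ± 0.07. These calls were fewer under some settings: 4 rose without anti-miR-33 animal 4 and 5 without control animal 3. With the 3′ minus 5′ difference as a covariate 0 rose, beside 0.43% of all genes. That difference was itself larger at baseline than at week 12, so this fit cannot fully separate it from time. To week 4, 3 rose (IRF1, MYC and the fibrinogen chain FGG) and 1 fell (A2M, a protease inhibitor), beside 12.2% and 15.7% of all genes. From week 4 to week 12, 3 rose: MCL1 by 0.67 ± 0.15, HP and CEBPB, and 0 fell, beside 9.58% and 9.82%, so both counts of 3 (15%) are near the share over all genes. That count was 5 without anti-miR-33 animal 4, 7 with the animal as a fixed block and 1 after a further quantile normalization.

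SOCS2 was higher after baseline on 1 probe set and lower at week 4 on another. On 203372_s_at the level ranged from 3.98 to 6.88 at baseline (median 5.32), from 5.10 to 7.61 at week 4 (median 6.61) and from 5.91 to 7.74 at week 12 (median 6.88), and the change was 0.99 ± 0.68 to week 4 and 1.40 ± 1.02 to week 12, each higher in 11 of 12 animals. On 203373_at the change was -0.41 ± 0.52 to week 4, lower in 9 of 12, and 0.62 ± 0.53 from week 4 to week 12, higher in 10 of 12. The first had an r of -0.765 with the 3′ minus 5′ difference and the second -0.04; with that covariate the change from baseline on the first was 0.25 at week 4 and 0.52 at week 12, and on the second -0.46 and 0.14. Within a time both agreed, with an r of 0.790 after the mean of each time was subtracted, against 0.546 before.

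**Figure D5:**
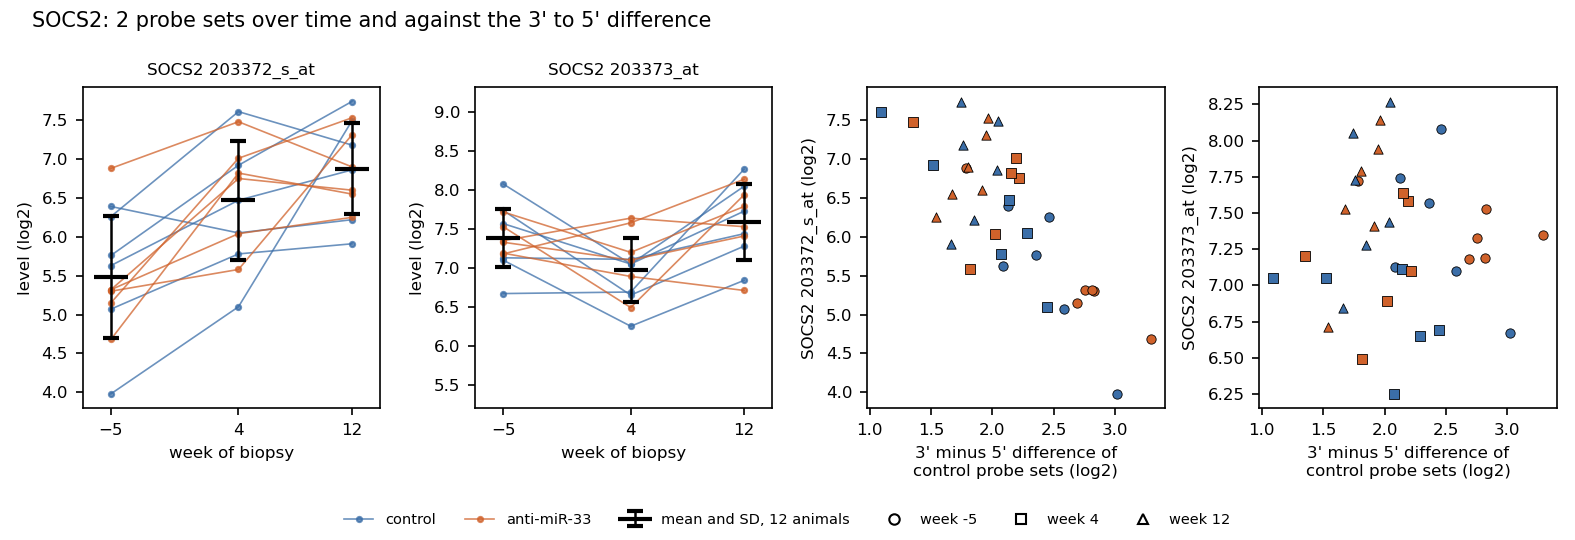
SOCS2 on 203372_s_at and 203373_at: level (log2) against the week of biopsy at left, drawn as for IL6ST, and against the 3′ minus 5′ difference of the control probe sets (log2) at right, with 1 point for each of 36 arrays. The first probe set is lower where that difference is larger (r = -0.765), and the second has an r of -0.04.

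Between the arms, no member passed the test. Of the 37 probe sets, limma called 0 at baseline, 0 at week 4 and 0 at week 12, where it called 0, 0 and 1 of all 54613 (0%, 0% and 0.00183%). It also called 0 for the difference between arms in each of the 3 changes, where it called 0% of all. At an unadjusted p under 0.05 there were 3, 1 and 1 members at the times and 3, 0 and 0 for the changes, beside 2002, 3205, 1465, 2271, 2242 and 1290 of all probe sets. Those at baseline were the LIFR pair above and JAK1 201648_at (-0.25 ± 0.09), at week 4 LIFR 227771_at (0.25 ± 0.09), and at week 12 JAK1 1552611_a_at (-0.34 ± 0.13, SE). Differences of members spanned -0.52 to 0.25 before treatment, -0.18 to 0.39 in week 4 and -0.37 to 0.23 in week 12. The lowest in week 12 was IL6ST 204863_s_at (-0.37 ± 0.21, SE), whose control animals ranged from 7.25 to 8.53 and anti-miR-33 animals from 7.44 to 8.02. The median standard error was 0.12.

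Other genes of the pathway, from 6 lists of 75 genes of which 65 were measured, were tested over time. These lists too were chosen with earlier results of these data known. To week 4, 9 rose (13.8%) and 7 fell (10.8%), beside 12.2% and 15.7% of all genes. From week 4 to week 12, 7 rose (10.8%) and 6 fell (9.23%), beside 9.58% and 9.82% of all genes, and the 7 was 11 with the animal as a fixed block. From baseline to week 12, 13 rose (20%) and 7 fell (10.8%), beside 6.59% and 10.2%. Of those that rose, 9 were the hepatic STAT3 targets already described. The others were 2 of 17 adaptors and inhibitors and 2 of 8 genes of the growth hormone list. The 13 came down to 7 without anti-miR-33 animal 4, and the 7 to 3 without that animal, 4 without control animal 5 and 4 without anti-miR-33 animal 6. With the 3′ minus 5′ difference as a covariate both were 0, beside 0.43% higher and 2.53% lower of all genes in that fit. To week 4 the counts in that fit were 4 and 2, beside 6.96% and 10.8% of all genes. Between the arms 0 of the 65 were called in any of the 6 comparisons, with 2, 1, 5, 1, 3 and 1 at an unadjusted p under 0.05. Over all probe sets that share was 3.67%, 5.87%, 2.68%, 4.16%, 4.11% and 2.36% in the same order.

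Among the upstream genes, the ligand LIF rose to week 4 by 0.23 ± 0.09 (SE), the only called ligand of 8 in any interval. ADAM10, a protease that sheds receptors such as IL6R from the cell surface, took the course of IL6ST 204863_s_at and 211000_s_at at a smaller size. It fell by 0.31 ± 0.06 to week 4 (limma adjusted p = 0.00035) and rose by 0.39 ± 0.06 to week 12 (7.5e-05). Such a departure at week 4 alone cannot be told apart from the separate series of the week 4 arrays. IL11RA, the interleukin-11 chain, fell by 0.34 ± 0.11 to week 4 and by 0.65 ± 0.11 from baseline to week 12, as LIFR was lower at both times. CNTFR, the chain for ciliary neurotrophic factor, fell by 0.24 ± 0.07 from week 4 to week 12. The kinase TYK2 fell in every interval, by 0.57 ± 0.10 from baseline to week 12 (6.41e-05), and STAT5A fell by 0.21 ± 0.06 from baseline to week 12.

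The inhibitors SOCS1 and PTPN6, a phosphatase, ran opposite to IL6ST 204863_s_at and 211000_s_at. This course too cannot be told apart from the separate series of the week 4 arrays. SOCS1 rose by 0.23 ± 0.06 to week 4 and fell by 0.23 ± 0.06 after it, and PTPN6 rose by 0.33 ± 0.06 and fell by 0.27 ± 0.06. The phosphatase PTPN2 fell by 0.18 ± 0.05 and rose by 0.15 ± 0.05. PTPN11, the phosphatase recruited to gp130, rose by 0.27 ± 0.07 from week 4 to week 12 and PTPN1 fell by 0.24 ± 0.07, while SOCS4 rose by 0.25 ± 0.07. SOCS7 and the exchange factor SOS1 fell to week 4, by 0.35 ± 0.09 and 0.40 ± 0.09, and were still lower at week 12, when PIAS4 was lower as well. Over that longer interval PTPN11 rose by 0.29 ± 0.07 and SOCS4 by 0.23 ± 0.07. On the growth hormone side, the hormone IGF1 rose by 0.95 ± 0.18 to week 4 and by 0.99 ± 0.18 from baseline to week 12. Its carrier subunit IGFALS rose by 0.49 ± 0.09 to week 4 and fell by 0.74 ± 0.09 after it (limma adjusted p = 1.15e-06). The erythropoietin receptor EPOR rose by 0.37 ± 0.08 from baseline to week 12. Of the 8 measured genes of that list, 3 were called higher to week 4, IGF1 and IGFALS among them.

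Genes most like each member in level over the 36 arrays were sought among the leading probe sets of other genes. For IL6ST 204863_s_at they were SPEN, KIF5B and NR3C1, the glucocorticoid receptor (r = 0.912, 0.912 and 0.893). For STAT3 208991_at they were DHODH, LNX2 and KDM3A (0.879, 0.866 and 0.815), and for OSMR ZBTB21, RHOB and MTHFD2L (0.822, 0.768 and 0.765). For JAK1 201648_at CTNNB1 came first (0.850), for JAK2 COMMD10 (0.845), for LIFR 225575_at PHLDB2 (0.745), for SOCS2 203373_at CREM (0.704), for IL6R MIX23 (0.697) and for SOCS3 206360_s_at GRK6 (0.688). SOCS3 227697_at, added after its values were seen, was most like SGK1 (0.867), with STAT3 second (0.845).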

How the data were processed

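Liver RNA of 36 biopsies was measured on 1 array each. The authors deposited 1 table of log2 values, credited to RMA (background correction, normalization between arrays, summary of probes) in the submitters' processing notes; for its version, and for whether all arrays went through 1 run, the answer was not given in the sources used here. Values ran from 2.41 to 15.07 and array medians from 4.42 to 4.51. Symbols came from the platform annotation; 62 control probe sets were left out, and 54613 were fitted with no filter on low values. limma 3.58.1, run in R 4.3.3, fitted all arrays at the same time with a mean for each of 6 groups, the animal as a random block (correlation 0.085), empirical Bayes moderation, two-sided tests and Benjamini-Hochberg adjustment over all 54613 probe sets of a comparison, with a threshold of 0.05. The animal identifiers in the labels pair the arrays. The number of arrays limits the precision, and the animals are the replicates. Scripts were tested on simulated data.

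The members and gene lists were chosen with earlier results of these data known. Pathway genes were read on their probe set of highest mean. Up to 4 called genes of smallest p in each direction are named per list and interval, and up to 3 most alike genes per member. For the growth hormone list to week 4 not every called gene is named. Changes of members are means and SDs of within-animal differences of log2 values. Alternatives covered a low-level filter, leading probe sets only, the animal as a fixed block or none, further normalization, the 3′ minus 5′ covariate, an intensity trend, single arrays and animals left out, and each arm alone. Sequences of the members were not used here.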

Additional observations from a re-analysis of the deposited data

Results flagged for a closer look

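In each of the 222 groups of 6 values (37 probe sets, 6 groups), the highest or lowest value was compared with its nearest neighbour as a share of the range, by Dixon's criterion. It marked 13 groups (5.86%), and chance alone marks about 1 in 20. Of these, 7 belong to the biopsies described above: SOCS3 227697_at in anti-miR-33 animal 4 at week 4 (6.86) and week 12 (7.32), STAT3 in anti-miR-33 animal 6 at baseline on 208991_at (11.68), 225289_at (9.88) and 243213_at (5.47), and JAK1 1552610_a_at (7.91, week 12) and IL6ST 234474_x_at (3.64, week 4) in anti-miR-33 animal 4. SOCS2 203372_s_at in anti-miR-33 animal 1 at baseline (6.88) was an array with a 3′ minus 5′ difference of 1.78, the lowest at baseline. Low values stood apart for OSMR 226621_at in control animal 3 at baseline (5.98), LIFR 225571_at in anti-miR-33 animal 1 at week 4 (7.52) and JAK1 240613_at in anti-miR-33 animal 2 at week 4 (4.69). The rest were high values of low-level probe sets: OSMR 1554008_at in control animal 5 at week 12 (4.82), whose hepatocyte markers were low, and JAK2 1562031_at in anti-miR-33 animal 2 at week 12 (3.30).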

How the results depend on the processing

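Member probe sets called between arms, or for a difference in change, numbered 0 under all settings run. The changes on IL6ST 204863_s_at and 211000_s_at moved by less than 1 SD under each setting run. Leaving out an animal gave -1.73 to -1.56, 0.88 to 1.05 and -0.70 to -0.54 on the first (to week 4, from there to week 12, and from baseline to week 12), and -1.22 to -1.04, 0.73 to 0.94 and -0.31 to -0.17 on the second. Of 2238 values of single member changes under other settings, 2235 moved by less than 1 SD; the 3 others came from the 3′ minus 5′ covariate, on JAK1 1552610_a_at and SOCS2 203372_s_at.

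Counts of pathway genes were less stable. With the 3′ minus 5′ covariate they were 4 higher and 2 lower to week 4, and 0 and 0 from baseline to week 12. Calls over all genes became fewer as well. To week 4 they went from 12.2% to 6.96% higher and from 15.7% to 10.8% lower. From baseline to week 12 they went from 6.59% to 0.43% higher and from 10.2% to 2.53% lower. The cause was not tested. With the animal as a fixed replicate block, in the paired fit, 11 rose from week 4 to week 12 in place of 7, and the other 5 counts of pathway genes stayed within 1.5 times. Leaving out an animal gave 6 to 9 higher and 5 to 8 lower to week 4, 5 to 10 and 5 to 7 from week 4 to week 12, and 7 to 13 and 3 to 8 from baseline to week 12. The number of arrays and the RNA measure limit these, and probe sets near the lowest signals cannot show a fall.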
